A study of Homo sapiens with 6 samples.

Results

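The genes described here are 52 genes that encode enzymes and regulators of mRNA deadenylation, decapping and decay, chosen by gene symbol from the 30987 genes of the count table. All 52 are protein-coding, all 52 passed the filter on low counts that left 15528 genes for testing, and all 52 are in the FPKM table. They comprise 10 genes grouped under the CCR4-NOT deadenylase, 3 other deadenylase genes, 4 BTG/TOB genes, 7 decapping genes and 7 genes of the LSM ring. The 5′ to 3′ exonuclease genes XRN1 and XRN2 and 6 genes of nonsense-mediated decay are included too. The rest are 10 genes of the exosome with DIS3 and DIS3L2, and 3 genes of the ZFP36 family.

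HepG2, a human liver cancer cell line, received either siRNA3, which is directed at PAIP1 (siPAIP1), or a control siRNA without a target (Ctrl), and the cells were harvested 48 h later. Each group had 3 libraries of poly(A) RNA, described in the study as biological replicates, and all of them came from this single cell line and from 1 siRNA. The protein made from PAIP1 binds PABPC1, the protein that coats poly(A) tails, so the comparison asks what a lower PAIP1 level does to the mRNAs of the decay machinery itself. Totals ranged from 29313211 to 34659866 counts per library, and no decay gene had fewer than 251 counts in any library.

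Most mRNAs in the cytoplasm are degraded in an ordered way. The poly(A) tail is first shortened by PAN2-PAN3 and CCR4-NOT, the cap is then removed by DCP2 with the help of the LSM ring, and the body is digested from the 5′ end by XRN1 or from the 3′ end by the exosome. BTG/TOB and ZFP36 proteins bring CCR4-NOT to chosen mRNAs, and PABPC1 on the tail is a binding site for TOB proteins and for PAN3. In liver cells, as elsewhere, the BTG, TOB and ZFP36 genes encode short-lived regulators of growth and of the inflammatory response.

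The values below are CPM, counts scaled by library size after TMM normalization, given in the order of replicates 1, 2 and 3. A gene is said to have risen or fallen where edgeR's quasi-likelihood test gave a Benjamini-Hochberg adjusted p under 0.05 over all 15528 genes. PAIP1 itself had 94.6, 81.5 and 90.0 CPM in Ctrl and 27.8, 21.8 and 20.1 CPM in siPAIP1, which is 26.2% of the Ctrl mean (log2 fold change -1.93, SE 0.13, adjusted p = 0.00092). PABPC1 had 904 ± 59.4 CPM in Ctrl and 778 ± 64.6 CPM in siPAIP1 (SD, n = 3), and the groups did not overlap, but the difference did not pass the test (log2 fold change -0.22, adjusted p = 0.169).

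The antisense strand of siRNA3 is shown because letters matching its seed (bases 2 to 8, in capitals) occur in the 3′ UTRs of some of the decay genes.
siRNA3 antisense: uAUCAUCCaaguauggauctt
siRNA3 sense: gauccauacuuggaugauatt
Its match on an mRNA is the word GGATGAT. Among the 3′ UTRs of the canonical transcripts in GENCODE release 44 (GRCh38), 8.50% of 12570 genes held this word, searched on the mRNA strand alone. Among the decay genes 7 of 52 (13.5%) did: BTG2, CNOT6L, DCP2, DIS3, EDC3, EXOSC2 and PATL1. Of these only BTG2 passed the test, and it rose, where 11.9% of all tested genes passed. Without siPAIP1 replicate 3, DCP2 passed too as higher and CNOT6L as lower. In that run 24.2% of all tested genes passed. What part the word had in these values was not tested.

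siPAIP1 replicate 3 stood apart from siPAIP1 replicates 1 and 2. In this library 1177 of the 9247 genes with a mean of 10 CPM or more lay over 0.5 log2 units from the mean of the other siPAIP1 libraries (12.7%), against 12 to 49 such genes in each Ctrl library. Among the decay genes 7 did so, all of them above. Results are therefore also given without it. The hepatocyte markers ALB, AFP, APOA1, APOB, TTR, SERPINA1, HNF4A and GPC3 were present, with a summed FPKM of 2593 to 2755 in Ctrl and 1459 to 2257 in siPAIP1. Of these 8 markers 5 fell, against 6.20% of all tested genes. Their part in the results below was not tested. Leukocyte markers summed to at most 2.31 FPKM, endothelial markers to 0.30 and fibroblast markers to 0.17. The cholangiocyte markers EPCAM, SOX9 and KRT7 summed to 129 to 135 FPKM in Ctrl and 102 to 126 FPKM in siPAIP1. In CPM all 3 were lower without overlap, against 17.6% of all tested genes, while in FPKM EPCAM overlapped. KRT7 fell (log2 fold change -1.24). Their part in the results was not tested either.

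Of the 52 decay genes, 5 (9.62%) passed the test, against 11.9% of all tested genes. BTG2 (chr1:203305491-203309602) and ZFP36L1 (chr14:68787660-68796253) rose, and TOB1 (chr17:50862223-50867978), BTG1 (chr12:92140278-92145846) and CNOT8 (chr5:154857553-154876792) fell. Over all tested genes 5.68% rose and 6.20% fell. No decay gene passed with a change of at least 2-fold, where the share among all tested genes was 2.22%, and 12 of the 52 had an unadjusted p under 0.05 (28.6% of all tested genes). In 16 decay genes (30.8%) the groups did not overlap, against 36.6% of all tested genes. In 7 of them siPAIP1 was higher (19.0% of all tested genes) and in 9 it was lower (17.6%). The median log2 fold change was 0.02 over the decay genes and 0.03 over all tested genes. DESeq2 called 7 decay genes (12.3% of all genes it tested), the same 5 with PAN2 and ZFP36L2. With limma-trend the number was 0 on log2(FPKM + 1), where 10 had an unadjusted p under 0.05, and 1 on log2(FPKM + 0.1), against 1.20% and 1.46% of all genes. RLE size factors gave 6 decay genes (11.5% of all genes), upper-quartile factors 4 (10.3%), no filter on low counts 7 (7.11%) and a minimum of 1 CPM in 3 libraries 5 (14.6%).

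**Figure D1:**
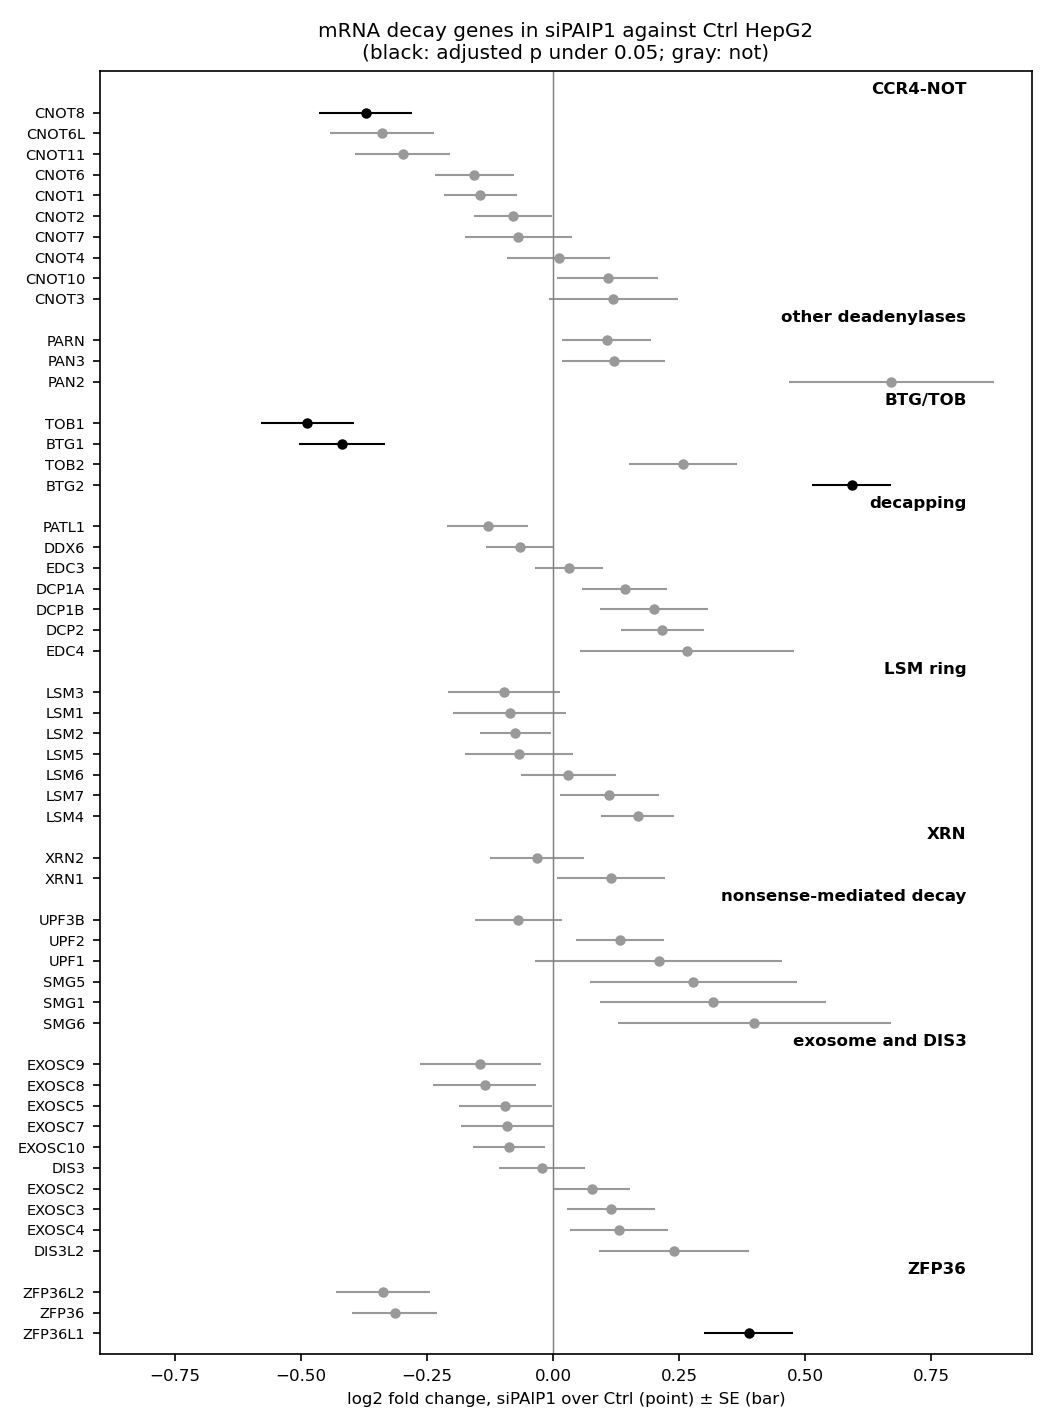
Log2 fold change of siPAIP1 over Ctrl (x axis, point) with its SE (bar) for the 52 decay genes, grouped by role, 3 libraries per group. Black points passed the test and gray points did not. The 5 black points belong to the BTG/TOB genes, the ZFP36 family and CNOT8, while the LSM ring lies between -0.10 and 0.17.

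The number depended on the libraries. Without Ctrl replicate 1, 2 or 3 it was 1, 2 and 1, against 2.98%, 4.30% and 2.89% of all tested genes. Without siPAIP1 replicate 1 or 2 it was 4 and 1, against 7.62% and 4.05%. In siPAIP1 replicates 1 and 2 alone against Ctrl, 13 decay genes passed (25.0%), against 24.2% of all tested genes. The same 5 genes were among them. PARN, DCP1B, DCP2 and PAN2 were higher in addition, with log2 fold changes of 0.18, 0.29, 0.25 and 0.41, and ZFP36, ZFP36L2, CNOT11 and CNOT6L were lower, with -0.34, -0.37, -0.21 and -0.29. Their adjusted p lay between 0.0039 and 0.0494.

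The 4 BTG/TOB genes encode small antiproliferative proteins that bind the catalytic subunits CNOT7 and CNOT8. In all 4 the groups did not overlap, against 36.6% of all tested genes. Of the 4 genes 3 passed the test, against 11.9% of all tested genes. Within both pairs of relatives the fitted changes had opposite signs, although TOB2 did not pass. BTG2, a p53 target, had 30.4, 31.5 and 32.0 CPM in Ctrl and 50.6, 46.7 and 44.3 CPM in siPAIP1. Each siPAIP1 library was above the highest Ctrl library by more than the whole range of Ctrl. The means were 31.3 ± 0.791 in Ctrl and 47.2 ± 3.20 CPM in siPAIP1 (SD, n = 3), a 1.51-fold rise with a log2 fold change of 0.59, an SE of 0.078 and an adjusted p of 0.0055. BTG2 passed without any 1 library (adjusted p from 8.0e-06 to 0.0445).

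BTG1, its closest relative, had 23.8, 25.4 and 23.9 CPM in Ctrl and 19.6, 18.3 and 16.8 CPM in siPAIP1. All siPAIP1 libraries lay below all Ctrl libraries. The mean fell from 24.4 ± 0.904 to 18.2 ± 1.38 CPM, a log2 fold change of -0.42 (SE 0.085, adjusted p = 0.0216). The fall did not pass without Ctrl replicate 1, 2 or 3 or siPAIP1 replicate 2 (adjusted p from 0.0749 to 0.0809). In GENCODE release 44, BTG1 shares exon bases with BTG1-DT and LINC01619, and BTG2 shares none with another gene.

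TOB1, whose protein also binds PABPC1, had 39.6, 43.9 and 44.1 CPM in Ctrl and 31.8, 31.9 and 27.3 CPM in siPAIP1. Here too the groups were apart. It fell from 42.5 ± 2.56 to 30.3 ± 2.65 CPM, to 0.713 of the Ctrl level (log2 fold change -0.49, SE 0.092, adjusted p = 0.0170). The call was lost when any Ctrl library or siPAIP1 replicate 2 was left out (adjusted p from 0.0536 to 0.0852). Whether the counting used strand is not given, and TOB1 shares 11.1% of its exon bases with TOB1-AS1 on the other strand, which had 41, 34 and 43 counts in Ctrl and 67, 77 and 53 counts in siPAIP1. TOB1 itself had 822 to 1457 counts.

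TOB2, which shares the PABPC1-binding part with TOB1, had 28.99, 31.2 and 29.9 CPM in Ctrl and 34.7, 31.8 and 41.3 CPM in siPAIP1. Every siPAIP1 library was above every Ctrl library, but siPAIP1 replicate 2 only narrowly, and the difference did not pass the test (log2 fold change 0.26, SE 0.11, adjusted p = 0.165).

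**Figure D2:**
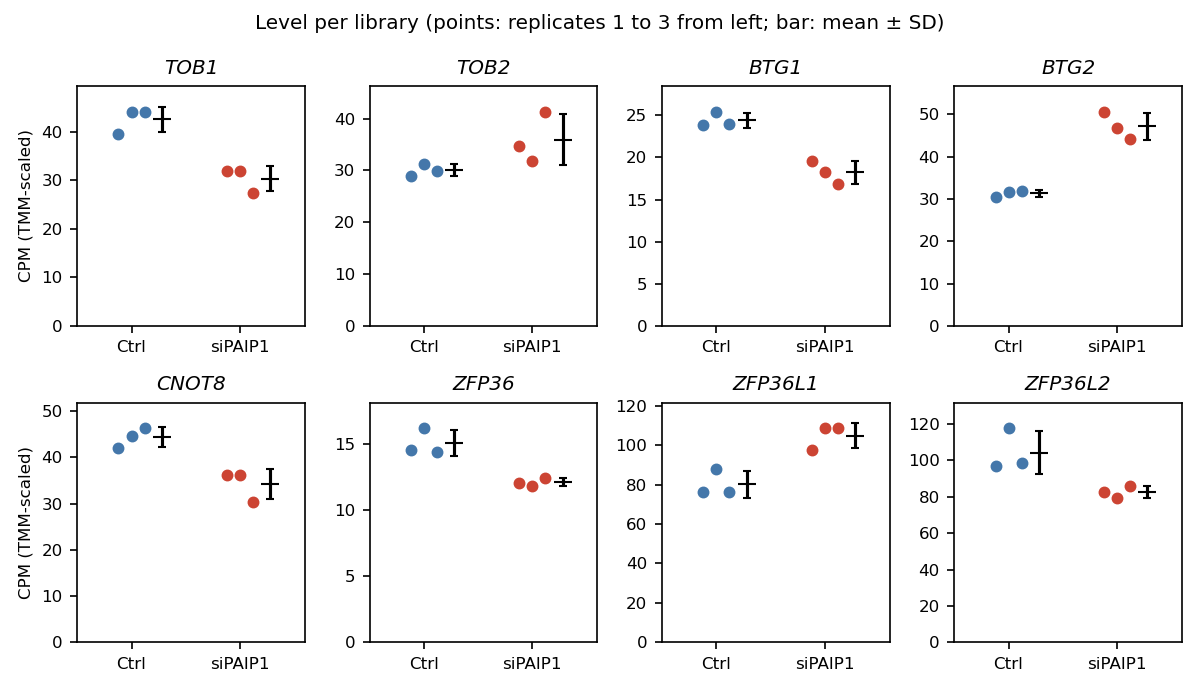
CPM (y axis, from 0) of 8 decay genes in each library. Points are replicates 1 to 3 of Ctrl (blue) and siPAIP1 (red) from left to right, and bars are the mean ± SD of 3 libraries. In each panel the groups do not overlap. BTG2 and ZFP36L1 rose, TOB1, BTG1 and CNOT8 fell, and TOB2, ZFP36 and ZFP36L2 did not pass the test.

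The CNOT8 3′ UTR is shown for a word it holds more often than most. It carries 4 copies of the Pumilio word TGTANATA (N is any base), the letters that PUM proteins bind and through which they bring CCR4-NOT to an mRNA. Among 12570 genes 28.3% held at least 1 copy and 1.45% held 4 or more, and among the decay genes 15 (28.8%) held at least 1. Of 1617 genes with a 3′ UTR within 20% of the length of that of CNOT8, 26.8% held a copy. The 30-base windows below are read on the mRNA strand, 5′ to 3′, with the word in capitals, and all lie in the 3′ UTR.
CNOT8 at 200 of 1353, chr5:154875628-154875657 (+): tgctctgaattTGTAAATAagtcttcccca
CNOT8 at 327 of 1353, chr5:154875755-154875784 (+): aagtagtaaaaTGTATATAactcttacctg
CNOT8 at 472 of 1353, chr5:154875900-154875929 (+): aggtaatgggtTGTAGATActgagtcttcc
CNOT8 at 1294 of 1353, chr5:154876722-154876751 (+): tttaagatgctTGTAAATActatttatgtt
Of the other genes that passed the test, BTG1, which fell, also holds 4 Pumilio words, in a 3′ UTR of 3802 bases. At least 1 copy was held by 49.6% of genes with a 3′ UTR of similar length to that of BTG1. TOB1, which fell, and BTG2 and ZFP36L1, which rose, hold no Pumilio word. BTG2 is shown for its 1 match of the siRNA3 seed.
BTG2 at 1164 of 2164, chr1:203308591-203308620 (+): tgctctccttgGGATGATggctggctagtc
Of 1677 genes with a 3′ UTR of similar length to that of BTG2, 9.42% held the seed match. A word in these windows is a description of their letters, and binding was not measured.

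The ZFP36 genes encode zinc finger proteins that bind AU-rich elements and recruit CCR4-NOT. In these genes, too, relatives differed in direction. ZFP36L1 had 76.2, 88.0 and 76.2 CPM in Ctrl and 97.4, 109 and 108 CPM in siPAIP1. The lowest siPAIP1 library was above the highest Ctrl library. The rise from 80.1 ± 6.78 to 105 ± 6.39 CPM, a log2 fold change of 0.39 (SE 0.087, adjusted p = 0.0314), did not pass without Ctrl replicate 1, Ctrl replicate 3 or siPAIP1 replicate 2 (adjusted p from 0.108 to 0.146).

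ZFP36L2 had 96.9, 118 and 98.3 CPM in Ctrl and 82.7, 79.1 and 85.8 CPM in siPAIP1 (log2 fold change -0.34, SE 0.093, adjusted p = 0.0578). ZFP36, also called tristetraprolin, had 14.6, 16.2 and 14.4 CPM in Ctrl and 12.04, 11.8 and 12.4 CPM in siPAIP1 (log2 fold change -0.31, SE 0.084, adjusted p = 0.0514). For both, every siPAIP1 library was below every Ctrl library, and neither passed the test. ZFP36L2 passed with DESeq2 and with no filter on low counts, and ZFP36 with RLE size factors. In the annotation 22.4% of the exon bases of ZFP36L2 lie opposite another gene. ZFP36L1 shares 7.92% of its exon bases with another gene on its own strand.

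All 3 mRNAs hold 3 copies of the core word TATTTAT of AU-rich elements, the letters their own proteins bind. At least 1 copy was in the 3′ UTR of 34.0% of 12570 genes and of 21 decay genes (40.4%), and 3 or more copies in 6.62% of genes and in 6 decay genes. The windows are shown because the words of ZFP36 lie close together and those of its relatives further apart.
ZFP36 at 493 of 708, chr19:39409181-39409210 (+): aatgggcccttTATTTATgacgactttatt
ZFP36 at 508 of 708, chr19:39409196-39409225 (+): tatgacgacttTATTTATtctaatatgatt
ZFP36 at 533 of 708, chr19:39409221-39409250 (+): tgattttatagTATTTATatatattgggtc
ZFP36L1 at 1180 of 1871, chr14:68788335-68788364 (-): ttatcaaaacgTATTTATtgccaaactatg
ZFP36L1 at 1222 of 1871, chr14:68788293-68788322 (-): aattttgttcaTATTTATcgggatgacaaa
ZFP36L1 at 1439 of 1871, chr14:68788076-68788105 (-): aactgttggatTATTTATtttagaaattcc
ZFP36L2 at 854 of 1917, chr2:43223447-43223476 (-): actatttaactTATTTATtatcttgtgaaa
ZFP36L2 at 902 of 1917, chr2:43223399-43223428 (-): tgttcatactgTATTTATcaagtatgatga
ZFP36L2 at 1090 of 1917, chr2:43223211-43223240 (-): attgtatgtaaTATTTATttcattaatttc
ZFP36L1 rose, while ZFP36 and ZFP36L2 lay below Ctrl and did not pass the test. For ZFP36, ZFP36L1 and ZFP36L2, 21.3%, 38.8% and 39.6% of genes with a 3′ UTR of similar length held the word. What part the word had in their levels was not tested.

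Within-library ratios of related genes were compared for 7 pairs on the FPKM scale, which is per length and so allows levels of different genes to be compared. The log2 ratio of BTG1 to BTG2 was -1.14, -1.10 and -1.20 in Ctrl and -2.16, -2.14 and -2.18 in siPAIP1. The difference of -1.01 was far larger than the range within either group, and BTG1 went from 0.451 to 0.224 of the level of BTG2. For TOB1 to TOB2 the mean log2 ratio was 1.36 ± 0.057 in Ctrl and 0.62 ± 0.32 in siPAIP1, and for ZFP36L1 to ZFP36L2 it was -0.80 ± 0.038 and -0.08 ± 0.11. ZFP36L1 thereby went from 0.575 to 0.948 of the level of ZFP36L2. The other pairs with no overlap were PAN3/PAN2, CNOT7/CNOT8 and CNOT6/CNOT6L, with differences of -0.52, 0.30 and 0.18. That of PAN3/PAN2 was -0.26 without siPAIP1 replicate 3. For these 6 pairs a two-sided exact permutation test gave p = 0.1, the smallest that 3 against 3 libraries can give, and 0.117 after Benjamini-Hochberg adjustment over the 7 pairs. DCP1A/DCP1B overlapped between the groups (difference -0.06, exact permutation p = 0.9). The ratios are made from the same libraries as the changes per gene and are not independent of them. No share over other pairs of genes was computed.

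**Figure D3:**
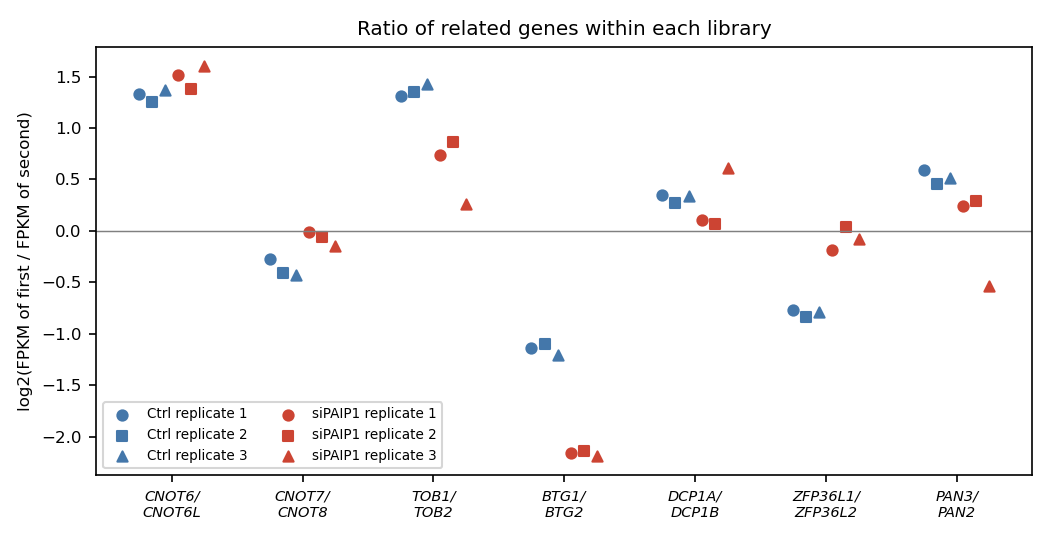
Log2 ratio of the FPKM values of 2 related genes within each library (y axis) for 7 pairs. Symbols mark replicates 1 to 3 of Ctrl (blue) and siPAIP1 (red). BTG1/BTG2 sits near -1.15 in all Ctrl and near -2.16 in all siPAIP1 libraries, and only DCP1A/DCP1B overlaps between the groups.

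The CCR4-NOT complex joins 2 kinds of deadenylase, CNOT6 or CNOT6L and CNOT7 or CNOT8, on the scaffold CNOT1. Of the 10 genes read here 1 fell (6.20% of all tested genes) and none rose (5.68%), with a median log2 fold change of -0.11. In 5 genes the siPAIP1 libraries all lay below Ctrl (CNOT1, CNOT6, CNOT6L, CNOT8 and CNOT11), against 17.6% of all tested genes. CNOT6 was apart only narrowly, with 33.35 CPM in siPAIP1 replicate 1 and 33.44 CPM in Ctrl replicate 3. On the FPKM scale CNOT6 overlapped, and 4 of the 10 genes did not overlap, against 19.0% of all genes. CNOT8 had 42.0, 44.7 and 46.3 CPM in Ctrl and 36.2, 36.1 and 30.5 CPM in siPAIP1. The mean fell from 44.4 ± 2.16 to 34.2 ± 3.29 CPM, a log2 fold change of -0.37 (SE 0.092, adjusted p = 0.0423). Of the runs that left out 1 library, it passed only without siPAIP1 replicate 3 (adjusted p up to 0.159 in the others), and with upper-quartile factors its adjusted p was 0.0660.

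CNOT7, which can take the same place in the complex as CNOT8, had 91.2, 88.1 and 90.5 CPM in Ctrl and 94.0, 90.9 and 72.3 CPM in siPAIP1, so only siPAIP1 replicate 3 was below Ctrl (log2 fold change -0.07, adjusted p = 0.694). CNOT6L, a catalytic subunit, had 20.8, 21.9 and 17.9 CPM in Ctrl and 16.1, 17.0 and 14.8 CPM in siPAIP1 (log2 fold change -0.34, SE 0.10, adjusted p = 0.0745). CNOT11, which forms a module with CNOT10, had 127, 121 and 117 CPM in Ctrl and 106, 105 and 86.7 CPM in siPAIP1 (log2 fold change -0.30, SE 0.095, adjusted p = 0.0841). Both were below Ctrl in every library and missed the threshold. CNOT3, a subunit of the NOT module, had the most positive value of the complex, 0.12 on the log2 scale (SE 0.13, adjusted p = 0.565), with 35.9, 42.4 and 34.98 CPM in Ctrl and 36.6, 38.4 and 48.1 CPM in siPAIP1. Its groups overlapped. The scaffold CNOT1 had 252, 273 and 247 CPM in Ctrl and 233, 225 and 240.3 CPM in siPAIP1 (log2 fold change -0.14, adjusted p = 0.236).

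Among the other deadenylases, PAN2 had the largest fitted change of the 52 genes over all libraries but also a wide spread. Without siPAIP1 replicate 3 its log2 fold change was 0.41, smaller than those of BTG2 (0.63) and TOB1 (-0.42). PAN2, the catalytic subunit of PAN2-PAN3, had 10.0, 12.5 and 9.81 CPM in Ctrl and 13.8, 14.8 and 22.9 CPM in siPAIP1. All siPAIP1 libraries were above Ctrl, and siPAIP1 replicate 3 was well above the other 2. The log2 fold change of 0.67 had an SE of 0.20 and an adjusted p of 0.0740 by edgeR's quasi-likelihood test. It passed with DESeq2, with no filter on low counts and without siPAIP1 replicate 3. In the annotation 19.5% of the exon bases of PAN2 lie opposite CNPY2-AS1. PARN, a separate poly(A)-specific ribonuclease, had 64.2, 65.1 and 67.9 CPM in Ctrl and 74.1, 75.6 and 62.5 CPM in siPAIP1 (log2 fold change 0.11, SE 0.089, adjusted p = 0.462).

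Of the 7 decapping genes none passed edgeR's quasi-likelihood test or DESeq2. In the former 1 had an unadjusted p under 0.05, against 28.6% of all tested genes. DCP2, the decapping enzyme, had 30.5, 29.9 and 27.0 CPM in Ctrl and 35.6, 33.9 and 32.0 CPM in siPAIP1. Its groups did not overlap (log2 fold change 0.22, SE 0.082, adjusted p = 0.137). DCP1B, an activator of DCP2, had 14.1, 15.1 and 13.9 CPM in Ctrl and 17.7, 17.7 and 14.2 CPM in siPAIP1 (log2 fold change 0.20, SE 0.11, adjusted p = 0.259). EDC4, a scaffold of the decapping complex, had 36.4, 43.1 and 40.3 CPM in Ctrl and 38.1, 39.4 and 66.7 CPM in siPAIP1 (log2 fold change 0.26, SE 0.21, adjusted p = 0.440). Only siPAIP1 replicate 3 was outside the range of Ctrl. PATL1, which links decapping with the LSM ring, had the lowest value of the group, with 37.8, 41.4 and 35.9 CPM in Ctrl and 35.6, 33.6 and 35.9 CPM in siPAIP1 (log2 fold change -0.13, SE 0.081, adjusted p = 0.322). Its groups overlapped.

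Of the 7 LSM genes none had an unadjusted p under 0.05 in edgeR, against 28.6% of all tested genes. None of the 7 LSM genes passed in edgeR or DESeq2. These genes encode the ring that binds the shortened tail and helps decapping, and LSM2 to LSM7 also serve in the nuclear ring of the spliceosome. LSM4 had the highest value of the group, with 152, 137 and 148 CPM in Ctrl and 169.8, 159 and 163 CPM in siPAIP1 (log2 fold change 0.17, SE 0.072, adjusted p = 0.176). LSM3 had the lowest, with 109, 85.4 and 99.0 CPM in Ctrl and 99.5, 92.0 and 82.2 CPM in siPAIP1 (log2 fold change -0.10, SE 0.11, adjusted p = 0.592). LSM4 was the only one of the 7 whose groups did not overlap, against 36.6% of all tested genes.

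XRN1, the cytoplasmic 5′ to 3′ exonuclease, had 8.41, 7.81 and 8.24 CPM in Ctrl and 8.74, 7.98 and 9.79 CPM in siPAIP1 (log2 fold change 0.12, SE 0.11, adjusted p = 0.509). Its nuclear relative XRN2 had 168, 159.99 and 170.4 CPM in Ctrl and 172, 174 and 142 CPM in siPAIP1 (log2 fold change -0.03, SE 0.094, adjusted p = 0.849). Both had overlapping groups. Of the 10 genes of the exosome with DIS3 and DIS3L2 none passed in edgeR or DESeq2. None had an unadjusted p under 0.05 in edgeR, against 28.6% of all tested genes. In all 10 the groups overlapped in CPM, where 36.6% of all tested genes did not overlap. On the FPKM scale the groups of 1 of them, EXOSC2, did not overlap, against 19.0% of all genes. The median log2 fold change of the 10 genes was -0.05. EXOSC9, a ring subunit, was lowest, with 42.9, 37.8 and 38.2 CPM in Ctrl and 41.0, 36.4 and 30.2 CPM in siPAIP1 (log2 fold change -0.14, SE 0.12, adjusted p = 0.459). DIS3L2, an exonuclease of uridylated RNA, was highest, with 27.3, 28.2 and 29.6 CPM in Ctrl and 28.4, 30.3 and 42.0 CPM in siPAIP1 (log2 fold change 0.24, SE 0.15, adjusted p = 0.318).

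The 6 genes of nonsense-mediated decay had the highest median log2 fold change of the 9 roles, but none passed in edgeR or DESeq2. None of the 6 had an unadjusted p under 0.05 in edgeR, against 28.6% of all tested genes. UPF1, the central RNA helicase, had 109.5, 126 and 120.1 CPM in Ctrl and 105, 106 and 201 CPM in siPAIP1 (log2 fold change 0.21, SE 0.25, adjusted p = 0.605). SMG6, an endonuclease, had 29.2, 32.7 and 27.4 CPM in Ctrl and 30.3, 28.3 and 59.3 CPM in siPAIP1 (log2 fold change 0.40, SE 0.27, adjusted p = 0.362). The value of siPAIP1 replicate 3 alone was high in both, while siPAIP1 replicates 1 and 2 were within or below the range of Ctrl.

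SMG1, the kinase that phosphorylates UPF1, had 87.4, 103 and 84.6 CPM in Ctrl and 89.8, 92.3 and 161 CPM in siPAIP1. SMG5, which binds phosphorylated UPF1, had 113, 116 and 114 CPM in Ctrl and 111, 112 and 192 CPM in siPAIP1. Again siPAIP1 replicate 3 was the high library. In the fit without it the log2 fold changes were -0.18 for UPF1, -0.01 for SMG1, -0.04 for SMG5 and -0.03 for SMG6. UPF2 and UPF3B are the adaptors that link UPF1 to exon junctions. UPF2 had a log2 fold change of 0.13 (adjusted p = 0.348), and UPF3B, the lowest of the 6, had 15.3, 14.1 and 14.5 CPM in Ctrl and 13.7, 13.1 and 15.0 CPM in siPAIP1 (log2 fold change -0.07, SE 0.087, adjusted p = 0.631). The median log2 fold change of the 6 genes was 0.24 over all libraries, -0.03 for siPAIP1 replicates 1 and 2 against Ctrl, and 0.76 for siPAIP1 replicate 3 against Ctrl. On the FPKM scale the 6 genes summed to 59.25, 63.3 and 61.5 in Ctrl and to 61.3, 61.4 and 94.6 in siPAIP1. SMG1 has pseudogenes with near-identical sequence, so its counts are uncertain, and the 7 pseudogenes in the count table summed to 369, 372 and 347 counts in Ctrl and 376, 331 and 723 counts in siPAIP1.

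**Figure D4:**
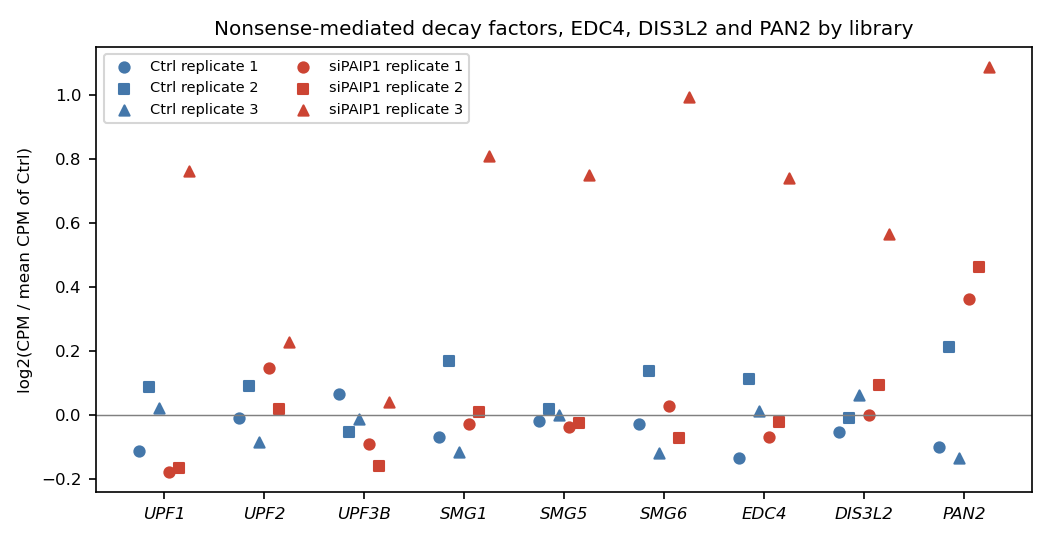
Log2 of the CPM in each library over the mean CPM of Ctrl (y axis) for the 6 genes of nonsense-mediated decay and for EDC4, DIS3L2 and PAN2. Symbols mark replicates 1 to 3 of Ctrl (blue) and siPAIP1 (red). The red triangles of siPAIP1 replicate 3 lie over 0.5 above the other siPAIP1 libraries for UPF1, SMG1, SMG5, SMG6, EDC4, DIS3L2 and PAN2. Of these 7 genes, PAN2 alone has both other siPAIP1 libraries above all Ctrl libraries.

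The 7 decay genes over 0.5 log2 units above siPAIP1 replicates 1 and 2 in siPAIP1 replicate 3 were SMG6 (1.02), UPF1 (0.93), SMG1 (0.82), EDC4 (0.78), SMG5 (0.78), PAN2 (0.67) and DIS3L2 (0.52). Their transcripts run from 3366 bases in DIS3L2 to 16062 in SMG1, and all but SMG1 exceed 50% G+C. Neither trait alone is particular to them. DIS3 (10571 bases, 39.1% G+C) and DCP2 (10110 bases, 37.1% G+C) lay at -0.21 and -0.12 in siPAIP1 replicate 3 on the same scale. EXOSC4 (842 bases, 64.0% G+C) and EXOSC5 (998 bases, 60.7% G+C) lay at -0.08 and -0.18. With more than 3366 bases and over 50% G+C together, TOB2, EDC3 and ZFP36L2 lay at 0.31, 0.05 and 0.08. Across the 50 decay genes with a mean of 10 CPM or more, the deviation of this library correlated with the G+C of the canonical transcript (Pearson r = 0.48, Spearman rho = 0.46) and with its length (r = 0.40, rho = 0.40). Over 8959 coding genes at the same level the values were 0.40 and 0.49 for G+C and 0.43 and 0.39 for length. These correlations are across genes that share the same libraries, and genes are not independent replicates. What part base composition or length had in the high values was not tested.

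**Figure D5:**
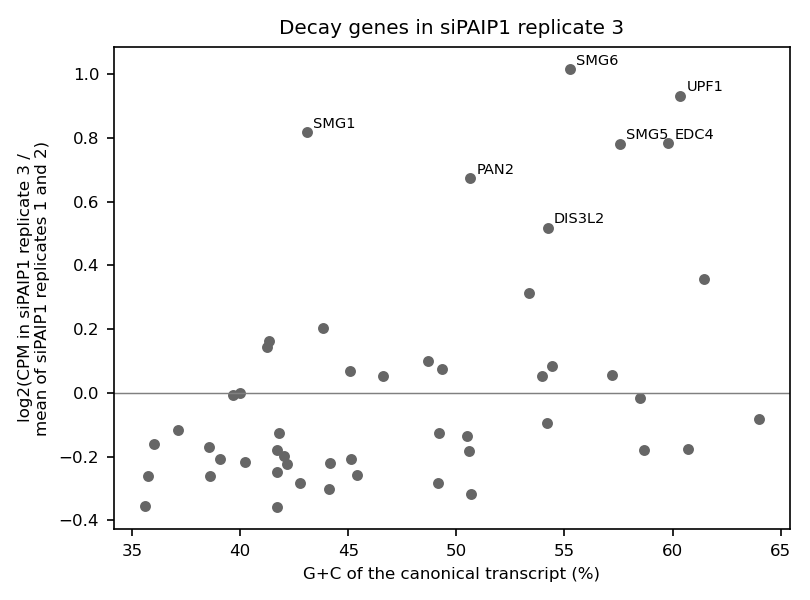
Log2 of the CPM in siPAIP1 replicate 3 over the mean of siPAIP1 replicates 1 and 2 (y axis) against the G+C of the canonical transcript in percent (x axis) for 50 decay genes, 1 point each. The 7 named genes lie above 0.5, and 6 of them have over 50% G+C, while SMG1 has 43.1%. Other genes with over 50% G+C lie below 0.5, such as TOB2 (53.4%) at 0.31 and EXOSC4 (64.0%) at -0.08.

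Levels per length differed widely among the decay genes. In Ctrl the highest mean FPKM was that of LSM7 (85.6), followed by LSM2 (77.2), LSM4 (68.6) and XRN2 (43.4), and the lowest that of XRN1 (0.68), CNOT4 (1.26), PAN2 (1.74) and CNOT6L (2.05). The genes that passed the test were in between, from 4.68 in BTG1 to 15.2 in TOB1. In bulk RNA, fewer cells with a transcript and less of it per cell cannot be told apart.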

How the data were processed

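After trimming with bcl2fastq and the FASTX-Toolkit 0.0.13, the authors aligned read pairs with TopHat2, which allowed 4 mismatches, to the GRCh38 build. They deposited raw fragment counts per gene. The FPKM values, which the authors divided by exon length and by mapped fragments, were deposited beside them. The libraries were directional. Not given in the sources used here were the counter, its strand setting and its annotation release.

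Counts were scaled by TMM in edgeR 4.0.16 (R 4.3.3), filtered by filterByExpr and compared by glmQLFit and glmQLFTest with group as the only term and Benjamini-Hochberg adjustment. FPKM ratios were compared by exact permutation. The alternatives were RLE and upper-quartile factors, no filter, at least 1 CPM in 3 libraries, DESeq2 1.42.0, limma-trend (limma 3.58.1) on FPKM with pseudocounts of 1 and 0.1, a 2-fold threshold, a replicate block and leaving out each library. Tables and words in 3′ UTRs were made in Python 3.11.15 from GENCODE release 44, and all windows matched the genome. siRNA3 was read from the study's supplement. The code was tested on simulated data.

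Decay genes and lists were chosen with earlier results of these data known. Library values are given for genes called in any alternative and for those with the highest or lowest change in each role. TOB2, CNOT1, CNOT6, CNOT7, UPF1, SMG1 and SMG5 were added after their values were seen. Other decay genes are named where called. Protein sequences were not used here, and 1 sequence result is not reported here. The p-values measure the spread between these libraries of 1 cell line.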

Additional observations from a re-analysis of the deposited data

How the results depend on the processing

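For the 24 decay genes that were called in any setting or had the highest or lowest change of their role, the direction was kept in 332 of 336 comparisons with an alternative, while 30 lost and 13 gained a call. Without siPAIP1 replicate 3 the sign turned for CNOT3 (-0.0134, against up to 0.20 without another library), EDC4 (-0.0487, up to 0.40), XRN2 (0.053, down to -0.083) and SMG6 (-0.0267, up to 0.59), none of which passed the test. Among the other decay genes it turned for UPF1 (-0.176), SMG1 (-0.0136), SMG5 (-0.0354), CNOT4 (-0.0504), CNOT7 (0.0363), LSM5 (0.0095) and DIS3 (0.0398), which did not pass either. CNOT4, LSM5, LSM6 and DIS3, all within 0.07 of 0, also turned in some other alternatives. The DCP1A/DCP1B difference turned to 0.0230 without siPAIP1 replicate 1 and 0.0407 without siPAIP1 replicate 2 (-0.23 to 0.041 over all runs that left out 1 library). BTG2 passed in 13 of 14 alternatives, ZFP36L1 in 8, BTG1 and TOB1 in 7 each and CNOT8 in 5. In limma-trend on log2(FPKM + 1) the adjusted p of BTG2 was 0.0531.

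Decay genes that rose numbered 0 and 1 in limma-trend with pseudocounts of 1 and 0.1, 0 with a 2-fold threshold and 1 to 6 without 1 library, and those that fell 0, 0, 0 and 0 to 7. Without Ctrl replicate 1, Ctrl replicate 3 or siPAIP1 replicate 2, BTG2 was the only decay gene called. Genes without overlap numbered 7 to 13 higher and 11 to 16 lower without 1 library, where 41.2% to 51.7% of all genes did not overlap. Over all genes, 202 and 256 rose and 165 and 193 fell in limma-trend, 173 and 171 at 2-fold, and 187 to 1857 and 269 to 1952 without 1 library, the highest without siPAIP1 replicate 3. The cause was not tested.

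With the replicate block, 366 genes rose and 459 fell, 5.31% of all genes, and of the decay genes 1 rose (BTG2) and 0 fell (7 at an unadjusted p under 0.05). Same-numbered libraries correlated at 0.39, -0.42 and -0.18 in their deviations from the group means, and siPAIP1 replicates 2 and 3 correlated best with Ctrl replicates 1 and 2, so the number was not taken as a pairing. With 3 libraries per group and a median biological coefficient of variation of 0.124, an adjusted p above the threshold does not show that a gene was the same in both groups.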

Other observations

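Other genes of RNA decay outside the 52 were read from a list of 73 symbols, of which 66 were in the table and tested. Of these 4 rose (6.06%, against 5.68% of all tested genes) and 0 fell by edgeR's quasi-likelihood test (4 lower at an unadjusted p under 0.05, and 1 lower by DESeq2), with a median log2 fold change of 0.03. MEX3D, an RNA-binding ubiquitin ligase of the MEX3 family, had 27.6, 28.9 and 25.6 CPM in Ctrl and 49.4, 49.3 and 59.5 CPM in siPAIP1. It rose by 0.95 on the log2 scale (SE 0.10, adjusted p = 0.0030), and its relative MEX3A, with 11.6, 13.5 and 10.8 CPM in Ctrl and 21.2, 19.4 and 23.4 CPM in siPAIP1, by 0.83 (SE 0.11, adjusted p = 0.0062). Both passed without any 1 library. PNRC1, related to the decapping activator PNRC2, had 22.2, 22.4 and 22.1 CPM in Ctrl and 30.6, 29.7 and 27.3 CPM in siPAIP1 (log2 fold change 0.39, adjusted p = 0.0183). ANGEL2, of the CCR4-like nuclease family, had 11.2, 9.83 and 10.3 CPM in Ctrl and 14.3, 15.1 and 13.2 CPM in siPAIP1 and rose by 0.44 on the log2 scale (adjusted p = 0.0260). PNRC1 and ANGEL2 passed without siPAIP1 replicate 3 and in no other run that left out 1 library. Without siPAIP1 replicate 3, 8 genes of the list rose and 6 fell, where 24.2% of all tested genes were called.

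Of 21 tested mRNAs with AU-rich elements, 1 rose and 3 fell (19.0% against 11.9% of all tested genes), with a median log2 fold change of 0.00. Without siPAIP1 replicate 3, 2 rose and 6 fell, where 24.2% of all tested genes were called. CCND1, which encodes cyclin D1, fell by 1.43 on the log2 scale (SE 0.14, adjusted p = 0.0022), from 544 ± 26.2 to 202 ± 40.9 CPM. It passed without any 1 library. PIM1, a kinase, fell by 0.42 (adjusted p = 0.0161), and CDKN1A, which encodes the cell cycle inhibitor p21, by 0.37 (adjusted p = 0.0367). IER2, an early response gene, rose by 0.73 (adjusted p = 0.0078). IER2 did not pass without Ctrl replicate 1 or 3. PIM1 passed without Ctrl replicate 1 or siPAIP1 replicate 3 and in no other such run. Of 19 tested genes with transcripts known to be cleared by nonsense-mediated decay, 1 rose and 3 fell (21.1% against 11.9% of all tested genes). Counts were per gene, so the cleared transcripts were not told apart from others of the same gene. The median log2 fold change of the 19 was -0.10. Without siPAIP1 replicate 3, 1 of them rose and 5 fell, where 24.2% of all tested genes were called. PPP1R15A rose by 0.52 (adjusted p = 0.0277), while GADD45B, GADD45A and CDKN1A, which is in both lists, fell by 0.50, 0.27 and 0.37. GADD45B did not pass without Ctrl replicate 1, Ctrl replicate 3 or siPAIP1 replicate 2, and PPP1R15A passed without siPAIP1 replicate 1 or 3 alone. GADD45A and CDKN1A passed without siPAIP1 replicate 3 and in no other run that left out 1 library.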
